A study of Mus musculus with 31 samples.

Results

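Immediate early genes are the genes a cell transcribes within minutes of a stimulus, from factors already present and without new protein synthesis. The 10 followed here were *Fos*, *Fosb*, *Jun*, *Junb*, *Atf3*, *Egr1*, *Nr4a1*, *Arc*, *Ier2* and *Dusp1*. They were chosen by gene name and make up 10 of the 55401 genes counted in each of 31 mouse brain RNA-seq libraries. All 10 passed the filter on low counts in every comparison. The series held 22 libraries of CD11b+ cells, which the labels call acutely isolated microglia. These cells were dissociated from whole brain with enzymes and captured on magnetic beads that bind CD11b. The other 9 libraries were of intact, snap-frozen temporo-occipital cortex.

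All mice were 13 months old and on a C57BL/6J background. The female CD11b+ groups were A-/wt/wt (7 mice), A+/wt/wt (4 mice) and A+/ki/ki (4 mice), and the male CD11b+ groups were A-/wt/wt (3 mice) and A-/ki/ki (4 mice). The cortex groups were all female: A+/wt/wt (4 mice), A+/ki/ki (4 mice) and a single A-/wt/wt mouse, which entered no test. A+ marks the APdE9 transgene, driven by the mouse prion promoter, with which the brain deposits amyloid, and A- its absence. The label ki/ki marks homozygous knock-in of the P522R variant of *Plcg2*, made with CRISPR/Cas9, in every cell that expresses the gene, and wt/wt the unedited gene. No A-/ki/ki female, no A+ male and no knock-in without transgene in cortex was among the samples. Each library carried its own mouse number within its group, so the spread between libraries was a spread between mice. Number 236 occurred both in CD11b+ A-/wt/wt and in cortex A+/wt/wt, and the labels were used as given.

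The protein products of these genes have different jobs. Fos, FosB, Jun, JunB and ATF3 are basic leucine zipper proteins that pair with one another to form AP-1 and related transcription factors. Egr1 is a zinc finger transcription factor and Nr4a1 an orphan nuclear receptor. Arc is an effector that works at the synapses of excitatory neurons, where it promotes the removal of AMPA receptors, and it is widely used as a marker of recently active neurons. Dusp1 is a phosphatase that switches off MAP kinases and so limits the signal that induced it, while Ier2 is a small nuclear protein of less defined function. In brain these genes are known above all as a read-out of neuronal firing, and their induction while tissue is being taken apart into single cells has been described in microglia too.

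Many of these genes share cyclic AMP response elements (CRE), bound by CREB and ATF proteins, close to where transcription starts. The 250 bases before the RefSeq transcription start (assembly GRCm38.p6) were found for 7 of the 10 genes, *Egr1* being left out and *Arc* and *Ier2* having no entry. For *Atf3*, *Dusp1* and *Nr4a1* this start lies well inside the gene span given further below, not at its edge. Shown are *Fos* and *Dusp1*, with the CRE core at several places, *Nr4a1*, with the most cores, *Atf3*, the gene with the widest difference between the preparations, and *Jun*, with none. Each runs 5′ to 3′ along the strand of its gene, and capitals mark the CRE core TGACG, its reverse complement CGTCA or the full palindrome.

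Fos, chr12:85473640-85473889, plus strand: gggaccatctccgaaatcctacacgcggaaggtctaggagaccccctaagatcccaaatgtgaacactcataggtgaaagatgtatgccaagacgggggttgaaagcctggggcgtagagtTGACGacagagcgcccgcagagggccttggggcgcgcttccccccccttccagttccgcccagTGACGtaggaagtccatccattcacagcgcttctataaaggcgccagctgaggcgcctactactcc

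Dusp1, chr17:26508473-26508722, minus strand: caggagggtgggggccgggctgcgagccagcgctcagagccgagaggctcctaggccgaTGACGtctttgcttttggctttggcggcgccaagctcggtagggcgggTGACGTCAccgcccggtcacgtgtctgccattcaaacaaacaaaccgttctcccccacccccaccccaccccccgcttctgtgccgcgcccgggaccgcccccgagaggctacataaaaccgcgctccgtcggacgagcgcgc

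Nr4a1, chr15:101266596-101266845, plus strand: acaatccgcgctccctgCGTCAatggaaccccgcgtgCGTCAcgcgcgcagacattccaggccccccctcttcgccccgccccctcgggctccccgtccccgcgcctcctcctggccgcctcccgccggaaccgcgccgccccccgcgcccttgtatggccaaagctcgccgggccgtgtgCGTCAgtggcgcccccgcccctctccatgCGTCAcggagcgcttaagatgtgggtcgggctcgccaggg

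Atf3, chr1:191183334-191183583, minus strand: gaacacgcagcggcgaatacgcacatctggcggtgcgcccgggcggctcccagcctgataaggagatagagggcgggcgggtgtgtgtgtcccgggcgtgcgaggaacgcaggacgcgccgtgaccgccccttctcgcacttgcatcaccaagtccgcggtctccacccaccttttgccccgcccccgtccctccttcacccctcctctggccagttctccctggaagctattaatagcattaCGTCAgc

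Jun, chr4:95052223-95052472, minus strand: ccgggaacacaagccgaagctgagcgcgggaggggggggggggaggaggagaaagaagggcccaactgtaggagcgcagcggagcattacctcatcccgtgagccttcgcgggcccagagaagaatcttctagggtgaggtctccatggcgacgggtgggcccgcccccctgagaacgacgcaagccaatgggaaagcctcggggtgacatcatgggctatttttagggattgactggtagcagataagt

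All motifs were searched from 250 bases before to 50 bases after the start, of which only the bases before the start are printed. The core TGACG, read on both strands, was in 6 of 7 of these promoters and in 20.8% of the 32851 RefSeq mouse promoters of the same table. In *Nr4a1* it stood at -233, -213, -69 and -40, counted from the start site to the first base of each match. *Fos* held it at -129 and -66, and *Atf3* at -7. The full palindrome TGACGTCA, which contains a core on each strand, was in 1 of the 7, that of *Dusp1* at -143, against 1.79% of all promoters. The AP-1 site TGANTCA was found in 0 of 7 (7.81% of all promoters), the CArG box in 0 of 7 (1.63%) and the EGR site GCGTGGGCG in 0 of 7 (0.612%). These are matches of letters in this window only, and the libraries measured RNA, not binding.

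Total counts per library ran from 16229831 to 25118180 in CD11b+ cells and from 25226544 to 43129427 in cortex. Levels are given as CPM, counts scaled to a common library size after TMM normalisation over all 31 libraries. *Plcg2* itself lay between 141 and 263 CPM in the CD11b+ libraries and between 4.81 and 8.54 CPM in cortex, which does not check the knock-in, a change of sequence. Of the cell type markers, the summed level of 10 microglia markers was 15100 to 32400 CPM in CD11b+ libraries and 418.5 to 891.2 CPM in cortex. The CD11b+ libraries were not free of other cells: 10 oligodendrocyte markers summed to between 7530 and 83610 CPM, against 3597 to 6030 CPM in cortex, and 15 neuron markers to between 231.2 and 5913 CPM, against 13390 to 15100 CPM. Single oligodendrocyte markers did not all follow their sum. In A+/wt/wt, 2 of the 10 were called higher in CD11b+ cells than in cortex and 5 lower, and in A+/ki/ki 2 higher and 4 lower. *Mbp* was at 29310 against 1941 CPM in A+/wt/wt, and *Cldn11* at 23.29 against 119.6 CPM. These are bulk libraries, so fewer cells of a type and less RNA per cell cannot be told apart.

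Some of the immediate early genes ranked high in the CD11b+ cells by CPM, which does not correct for gene length. By mean CPM, *Jun* ranked between 39 and 86 in the 5 CD11b+ groups, *Nr4a1* between 639 and 1714 and *Arc* between 4215 and 10757. *Fos* ranked between 69 and 172 among all 55401 genes in the same groups and between 5522 and 6490 in the 3 cortex groups. Genes can be compared with one another only per kilobase of exon. In CD11b+ A+/wt/wt, *Jun* (318.3 CPM per kb), *Junb* (315.1) and *Fos* (274.4) led, followed by *Atf3* (165.3), *Egr1* (147.5), *Ier2* (118) and *Dusp1* (115.9), with *Fosb* (33.36), *Nr4a1* (31.39) and *Arc* (6.48) last. In cortex A+/wt/wt the order was another one, led by *Egr1* (65.47 CPM per kb), *Arc* (52.66) and *Junb* (40.83), while *Atf3* (1.22) was last. *Jun*, *Junb* and *Dusp1* share exonic bases with a gene on the opposite strand (*Junos*, *Prdx2* and *Ergic1*). The counting ignored strand, so reads over the shared bases could not be told apart by strand. The counts of *Jun*, *Junb* and *Dusp1* may be affected in either direction.

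**Figure D1:**
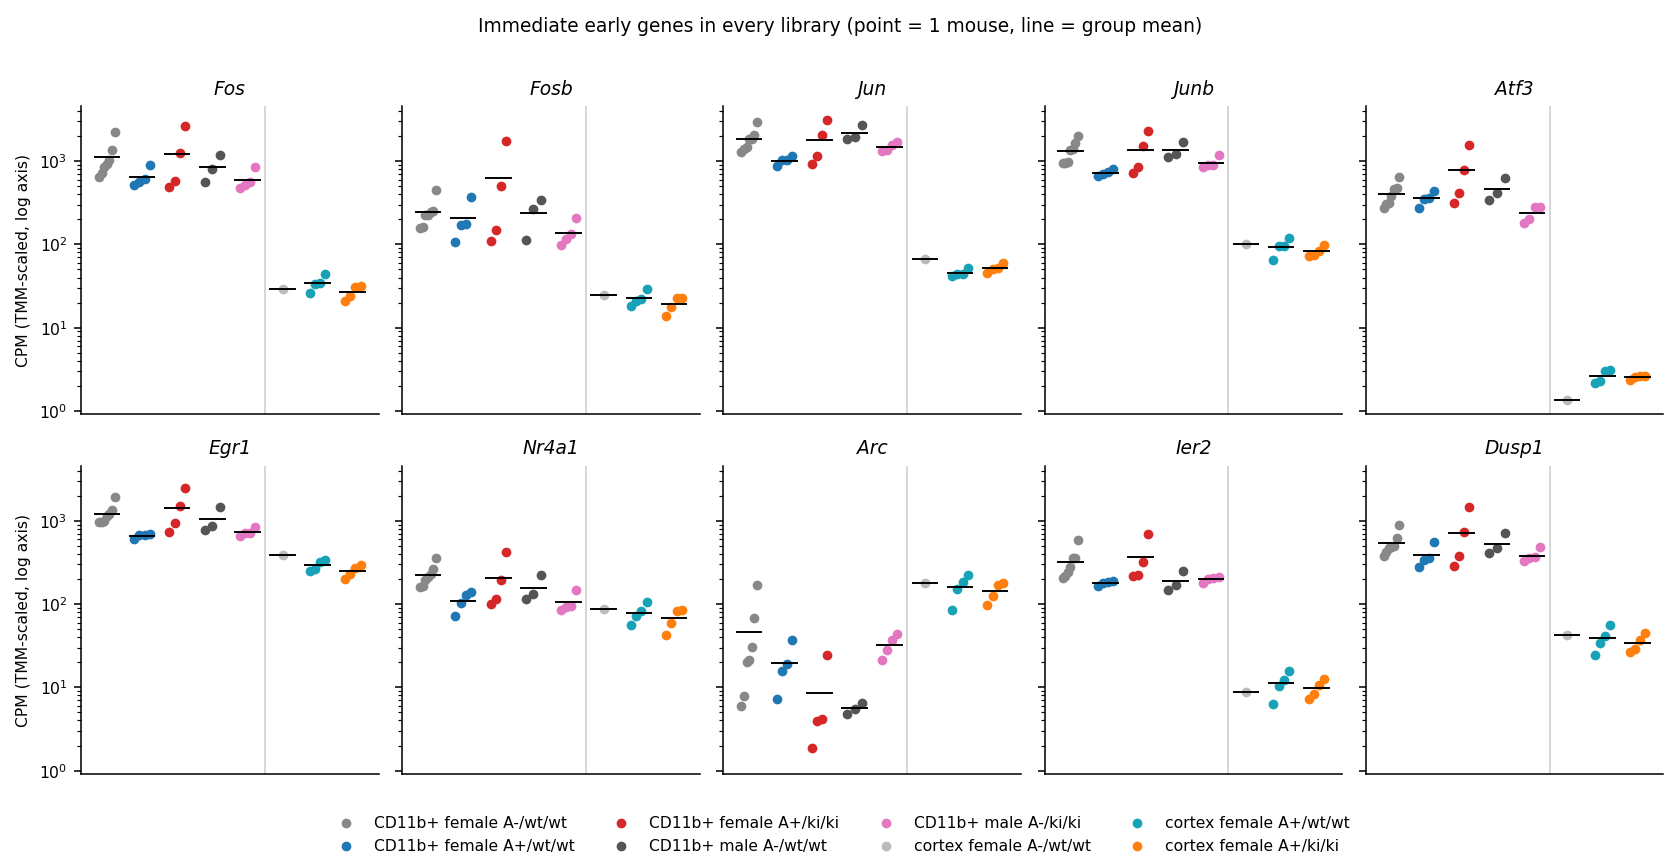
Level of each immediate early gene in every library, as CPM on a log axis, 1 panel per gene. Points are mice, horizontal lines are group means and the 8 groups stand along the x axis. In the *Fos* panel all 22 CD11b+ libraries lie at 469 CPM or above and all 9 cortex libraries at 44.2 CPM or below, whereas in the *Arc* panel all 8 A+ cortex libraries lie above the 8 A+ CD11b+ libraries.

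The rule behind the choice of genes set the dissociated CD11b+ preparations against intact cortex, and this was tested within each A+ genotype, 4 mice against 4 with no mouse number in common. Of the 10 genes, 9 were higher and 1, *Arc*, was lower in CD11b+ cells in both genotypes, at an FDR of 0.05 by edgeR's quasi-likelihood test. In the same comparison 77.9% of the 18541 genes tested were called in A+/wt/wt (37.7% higher and 40.2% lower) and 76.6% of 18954 in A+/ki/ki (36.8% higher and 39.8% lower), so a call by itself says little here. Without overlap between the preparations, 8 of the 10 were higher in A+/wt/wt (33.3% of all genes) and 9 of the 10 in A+/ki/ki (32.6%). Cell type, enzymatic dissociation, brain region and the RNA extraction kit all differed between the preparations and cannot be told apart.

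The AP-1 genes come first. *Fos* (chromosome 12, 85473890 to 85477273, plus strand, GRCm38) was at 514.9, 906.3, 607.8 and 552.8 CPM in the 4 CD11b+ A+/wt/wt libraries and at 34.39, 44.23, 33.18 and 25.77 CPM in the 4 cortex A+/wt/wt libraries. Every CD11b+ value lay above every cortex value, by 18.8-fold in the means (log2 difference 4.30 ± 0.24 SE, edgeR adjusted p = 4.3e-08). For A+/ki/ki the same gene was at 570.9, 488.9, 2602 and 1262 CPM in CD11b+ cells and at 30.92, 31.82, 21.02 and 24.23 CPM in cortex. The groups again did not overlap, and the CD11b+ libraries varied 5.32-fold among themselves (log2 difference 5.54 ± 0.60, edgeR adjusted p = 5.39e-05).

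*Atf3* (chromosome 1, 191170296 to 191218039, minus strand), which encodes a stress-inducible partner and antagonist of AP-1, showed the widest gap. It was at 273.8, 436.4, 351.3 and 362.3 CPM in CD11b+ A+/wt/wt and at 2.999, 3.096, 2.152 and 2.269 CPM in cortex A+/wt/wt. The difference was 135-fold in the means (log2 7.15 ± 0.22, edgeR adjusted p = 2.52e-09), and in A+/ki/ki 301-fold (log2 8.26 ± 0.61, edgeR adjusted p = 6.13e-06). No cortex library of either genotype exceeded 3.10 CPM and no CD11b+ library of any group was below 179.8 CPM.

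*Jun* (chromosome 4, 95049034 to 95052222, minus strand) was at 871.6, 1150, 1020 and 1018 CPM in CD11b+ A+/wt/wt and at 41.47, 52.27, 44.15 and 44.46 CPM in cortex, a 22.3-fold difference (log2 4.55 ± 0.15, edgeR adjusted p = 2.68e-09). *Junb* (chromosome 8, 84974484 to 84978718, minus strand) ran from 654.9 to 798.9 CPM against 65.47 to 118.5 CPM, 7.72-fold. Neither gene overlapped between the preparations, and *Junb* varied 1.81-fold among the cortex A+/wt/wt libraries. *Fosb* (chromosome 7, 19302696 to 19310051, minus strand) spread more, from 107.3 to 375.2 CPM in CD11b+ cells, and was 9.27-fold above its cortex range of 17.97 to 29.39 CPM (log2 3.29 ± 0.36, edgeR adjusted p = 8.04e-06).

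Outside AP-1, *Ier2* (chromosome 8, 84661331 to 84662852, minus strand) was at 190.6, 165.1, 178 and 184.7 CPM in CD11b+ A+/wt/wt and at 12.41, 15.51, 10.52 and 6.246 CPM in cortex, 16.1-fold apart without overlap (log2 4.07 ± 0.24, edgeR adjusted p = 6.57e-08). *Dusp1* (chromosome 17, 26505590 to 26562128, minus strand), the MAP kinase phosphatase, was 9.83-fold higher, at 277.9 to 555.2 CPM against 24.37 to 55.97 CPM. The remaining transcription factors differed less, and both are well expressed in cortex.

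*Egr1* (chromosome 18, 34859823 to 34864984, plus strand) was at 600.4, 681.5, 675.8 and 688.2 CPM in CD11b+ A+/wt/wt and at 265.6, 335.1, 322.6 and 251 CPM in cortex. The sets stood apart by only 2.25-fold (log2 1.24 ± 0.13, edgeR adjusted p = 5.38e-06). *Nr4a1* (chromosome 15, 101254269 to 101274795, plus strand) was at 102.2, 128.1, 72.14 and 138.2 CPM against 82.96, 104.4, 72.69 and 55.73 CPM. The 2 sets overlapped, and the call was a narrow one (log2 0.55 ± 0.23, edgeR adjusted p = 0.046). It was lost when library totals replaced TMM (log2 0.20, adjusted p = 0.45) and without CD11b+ mouse 367 or 380 or cortex mouse 236, 259 or 329, with adjusted p from 0.0793 to 0.135. *Nr4a1* in A+/ki/ki was 3.06-fold higher, at 100.3 to 417.6 CPM against 42.15 to 84.15 CPM (log2 1.64 ± 0.46, edgeR adjusted p = 0.0102).

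*Arc* (chromosome 15, 74669083 to 74672570, minus strand) went the other way. It was at 37.3, 15.5, 7.286 and 19.15 CPM in CD11b+ A+/wt/wt and at 182, 225.5, 151.3 and 85.12 CPM in cortex A+/wt/wt. The highest CD11b+ library lay below the lowest cortex library (log2 -2.96 ± 0.44, edgeR adjusted p = 0.000105). In A+/ki/ki it was at 4.113, 24.36, 3.891 and 1.866 CPM in CD11b+ cells and at 177, 168.2, 125.5 and 96.03 CPM in cortex (log2 -4.00 ± 0.81, edgeR adjusted p = 0.0019). Neuron markers fell alongside it, 15 of 15 being called lower in both genotypes with a median log2 difference of -3.87 in A+/wt/wt.

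Other genes of the same early response were read from lists chosen by function. Early chemokines and cytokines were higher in CD11b+ A+/wt/wt cells in 12 of 12 genes (median log2 difference 6.29, against -0.06 over all genes tested). Among them were the inflammatory cytokine genes *Tnf* (76.11 against 0.08993 CPM) and *Il1b* (59.3 against 0.3912 CPM) and the chemokine gene *Ccl4* (258 against 1.436 CPM). Feedback inhibitors and RNA decay factors were higher in 17 and lower in 5 of 22 (median 2.91), led by *Zfp36*, whose product destabilises AU-rich transcripts and which was at 1218 ± 125.7 CPM (SD, n = 4) against 5.891 ± 1.235 CPM. *Socs3*, a brake on cytokine receptor signalling, was at 170.1 against 5.109 CPM. Of the other AP-1, ATF and MAF genes, 11 of 16 were higher and 2 lower (median 1.30), with *Maff* at a log2 difference of 3.22 and *Maf*, which encodes a macrophage transcription factor, at 3.11.

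Neuronal effector genes, like *Arc*, were mostly lower. Activity-regulated effectors of neurons were lower in 10 and higher in 3 of 15 (median -3.38), with *Nptx2*, *Bdnf* and *Vgf* at log2 differences of -5.64, -5.54 and -5.37. The remaining EGR, NR4A, KLF and early transcription factors split 6 higher and 8 lower of 16: *Klf2* was higher (log2 4.14), while *Egr4* (log2 -5.42) and *Npas4* (log2 -4.08), a factor almost restricted to neurons, were lower. Heat shock genes split 6 higher and 8 lower of 14 (median -0.39), with *Hsph1* at 45.14 against 303.8 CPM and *Hspa1b* at 49.47 ± 43.87 against 15.04 ± 4.752 CPM. The upstream regulators SRF, CREB, ERK and their partners split 7 higher and 8 lower of 19 (median -0.04).

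Cell type markers moved with the preparation as well. All 10 microglia markers were higher in CD11b+ cells, by a median log2 difference of 4.78 in A+/wt/wt and 5.01 in A+/ki/ki. Of the 10 immediate early genes only *Atf3* exceeded that median in A+/wt/wt, and *Fos*, *Jun*, *Ier2*, *Fosb* and *Atf3* did so in A+/ki/ki. Markers of endothelial cells (9 of 9), border macrophages (8 of 8) and neutrophils and monocytes (8 of 8) were higher too. Their part in the levels of the immediate early genes was not tested.

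**Figure D2:**
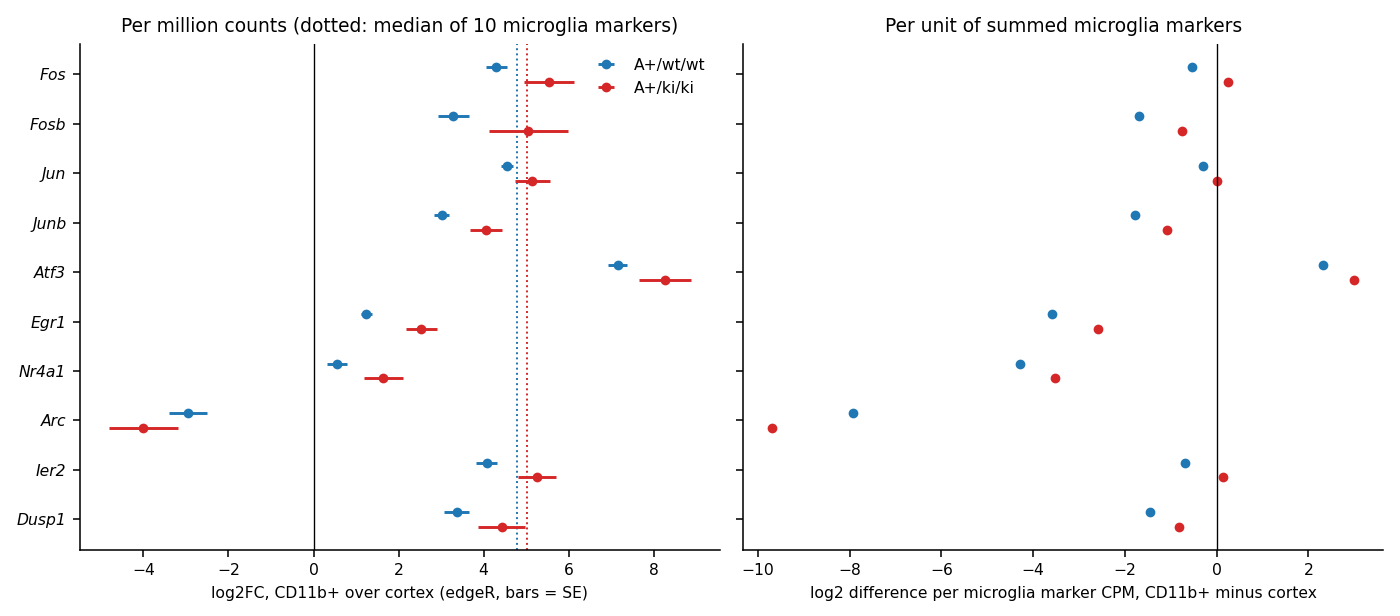
Left, log2 difference ± SE (edgeR) of each immediate early gene between CD11b+ cells and cortex in A+/wt/wt and A+/ki/ki, with dotted lines at the median of the 10 microglia markers (4.78 and 5.01). Right, the log2 difference of the same genes per CPM of summed microglia markers. On the left only *Arc* lies below 0, and on the right *Atf3* is the only gene above 0 by more than 1 log2 unit.

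Each gene was therefore also set against the microglia content of its library, as CPM per 1000 CPM of the 10 summed microglia markers. This ratio does not depend on the scaling. It takes no account of the share of each transcript that comes from other cells, which in intact cortex include neurons that express *Egr1*, *Arc* and *Nr4a1*. With 4 against 4 the exact two-sided permutation test cannot go below p = 0.0286, and p-values were adjusted over all genes tested. Over all 18541 genes in A+/wt/wt, 0.324% were higher and 93.9% lower without overlap in CD11b+ cells on this scale.

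*Atf3* was the only one of the 10 genes that stayed higher per unit of microglia markers in A+/wt/wt, at 15.57 to 16.32 in CD11b+ cells and 2.822 to 3.581 in cortex. This was 4.97-fold (exact permutation p = 0.0286, adjusted p = 0.0303). The A+/ki/ki difference was 7.98-fold, at 15.87 to 52.31 against 2.916 to 3.228 (exact permutation adjusted p = 0.0303), where 0.448% of 18954 genes were higher without overlap. In neither genotype did the preparations overlap. Lower without overlap on this scale in A+/ki/ki were *Junb*, *Egr1*, *Nr4a1* and *Arc*, beside 93.7% of all genes.

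*Fos* per 1000 CPM of microglia markers was 24.27 to 33.89 in CD11b+ A+/wt/wt and 34.28 to 49.63 in cortex, a ratio of 0.684 (exact permutation adjusted p = 0.0303), with the ranges only just apart. That call was lost for 7 of the 8 libraries when left out one at a time. For A+/ki/ki the values were 21.97 to 86.79 against 25.85 to 36.92, and the ranges overlapped (ratio 1.18, exact permutation adjusted p = 0.75). *Jun* (ratios 0.817 and 1.00) and *Ier2* (0.621 and 1.10) overlapped between the preparations in both genotypes. *Egr1* was 12-fold lower and *Nr4a1* 19.6-fold lower in CD11b+ A+/wt/wt on this scale, without overlap, and *Arc* 245-fold lower. Also lower without overlap in A+/wt/wt were *Fosb* (ratio 0.312), *Junb* (0.289) and *Dusp1* (0.365), beside 93.9% of all genes.

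In CD11b+ cells of A-/wt/wt females the level of *Arc* followed their neuronal RNA. In the 7 CD11b+ A-/wt/wt libraries *Arc* ran from 6.018 to 168.7 CPM (median 21.33) and the sum of 15 neuron markers from 478.1 to 5913 CPM (median 1031). Mouse 223 was highest in both, mouse 236 next, and mouse 242 lowest in both. Over these 7 mice, log2 *Arc* and the log2 neuron sum gave Pearson's r = 0.992 (exact permutation p = 0.000198, the smallest these 7 allow, adjusted p = 0.00198 over 10 relations) and Spearman's rho = 1.0 (exact permutation p = 0.000397, adjusted p = 0.00397). Without mice 223 and 236, farthest from the median neuron sum, r was 0.999 over 5 mice (exact permutation p = 0.00833, adjusted p = 0.0833). With 5 mice the smallest possible p is 0.00833, and 1 gene alone at that value does not pass after adjustment over 10. For the other 9 genes r lay between -0.282 and 0.309 over 7 mice, with an exact permutation adjusted p of 1.0 in each, and between 0.229 and 0.683 without mice 223 and 236. Groups under 6 mice were not tested, and their order was not always the same. In CD11b+ A+/wt/wt mouse 375 had the highest neuron sum (2149 CPM) and the lowest *Arc* (7.286 CPM), and in male A-/wt/wt mouse 102 had the lowest sum (259.4 CPM) and the highest *Arc* (6.447 CPM).

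*Arc* per 1000 CPM of neuron markers was accordingly compared, a ratio added after the relation had been seen. It was 3.39 to 17.6 (median 12.38) in CD11b+ A+/wt/wt and 6.357 to 15.58 (median 11.84) in cortex A+/wt/wt, which overlapped (log2 difference -0.15, exact permutation p = 0.829). In A+/ki/ki it was 6.096 to 10.07 in CD11b+ cells and 6.872 to 12.44 in cortex (log2 difference -0.23, exact permutation p = 0.429, adjusted p = 0.643). Against *Snap25* alone the differences had the opposite sign, 0.82 and 0.71, and also did not pass. Leaving out CD11b+ mouse 375 or cortex mouse 257 also turned the sign in A+/wt/wt (0.36 and 0.03).

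**Figure D3:**
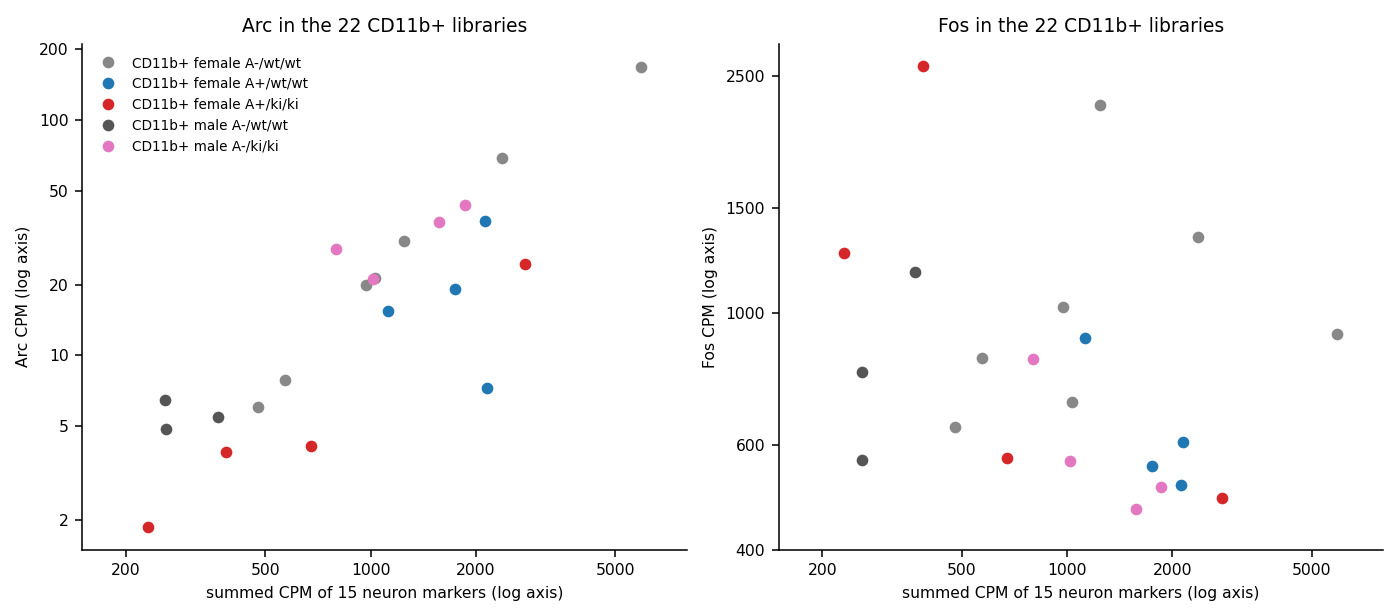
*Arc* (left) and *Fos* (right) against the summed CPM of 15 neuron markers in the 22 CD11b+ libraries, both axes logarithmic, coloured by group. *Arc* runs from 1.87 to 168.7 CPM as the neuron sum runs from 231.2 to 5913 CPM, and the library highest in *Fos* (2602 CPM) has a neuron sum of 386.5 CPM.

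The first question on the variant was what P522R does in microglia without amyloid, and the male CD11b+ libraries, 4 A-/ki/ki against 3 A-/wt/wt, address it. Of the 10 genes, *Arc* was higher and *Atf3* lower in A-/ki/ki by edgeR, 2 calls beside 16.4% of the 16373 genes tested (11.1% higher and 5.26% lower). *Arc* was at 21.2, 36.98, 43.49 and 28.33 CPM in A-/ki/ki and at 5.459, 6.447 and 4.842 CPM in A-/wt/wt. The sets did not overlap, as for 15.3% of all genes in this direction (log2 difference 2.54 ± 0.25, edgeR adjusted p = 0.00374).

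Neuron markers were called higher in 15 of 15 in the same comparison (median log2 2.07), among them *Camk2a* (598 against 116.6 CPM), and their sum was 797.6 to 1857 CPM in A-/ki/ki against 259.4 to 367.1 CPM in A-/wt/wt. Astrocyte markers were higher in 10 of 10 and oligodendrocyte markers in 7 of 10. Per 1000 CPM of neuron markers *Arc* was 20.83 to 35.52 in A-/ki/ki and 14.87 to 24.85 in A-/wt/wt, with overlapping ranges (log2 difference 0.41, exact permutation p = 0.229, and 0.643 when adjusted over the 3 comparisons of this ratio).

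*Atf3* was at 284.1, 179.8, 203 and 277.8 CPM in male A-/ki/ki and at 630.2, 340.8 and 418.2 CPM in male A-/wt/wt. Every A-/ki/ki mouse lay below every A-/wt/wt mouse (log2 difference -0.97 ± 0.23, edgeR adjusted p = 0.023). The call was lost without A-/wt/wt mouse 101 (log2 -0.64, adjusted p = 0.12) or 94 (adjusted p = 0.0698) and without A-/ki/ki mouse 136 (adjusted p = 0.0553) or 139 (adjusted p = 0.0657). The microglia markers had a median log2 difference of -0.36, with *Sall1* called lower.

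Of the other 8 genes none was called at this threshold, 7 had a negative difference and 6 of the 8 had an unadjusted p under 0.05, a level that 33.3% of all genes tested reached. *Jun* was at 1694, 1342, 1334 and 1549 CPM in A-/ki/ki and at 2732, 1919 and 1851 CPM in A-/wt/wt, also without overlap (log2 -0.55 ± 0.19, edgeR adjusted p = 0.0728), as 15.4% of genes were lower without overlap. *Fos*, at 469 to 836.8 CPM against 566.2 to 1174 CPM, overlapped between the genotypes (log2 -0.51 ± 0.27, edgeR adjusted p = 0.217). *Ier2* was at 197.3 ± 12.7 CPM (SD, n = 4) and 189.6 ± 53.87 CPM (SD, n = 3), with no difference beyond that spread.

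In the other lists, early chemokines and cytokines had 2 of 12 genes lower (*Rgs1* at 30.94 against 57.04 CPM and *Il1a* at 70.79 against 107 CPM), and the feedback inhibitors 6 lower and 2 higher of 22, with *Tnfaip3*, an inhibitor of NF-kB signalling, at 67.59 against 126.9 CPM. Activity-regulated effectors of neurons had 4 higher and 1 lower of 14, with *Vgf* (log2 2.28) and *Scg2* (log2 1.82) higher and the clock gene *Per1* lower (log2 -1.08). *Atf6* (log2 -0.32) and *Myc* (log2 -0.84) were lower, and *Klf9* (log2 0.76), *Hspb1* (log2 0.82) and *Crtc1* (log2 0.56) higher.

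**Figure D4:**
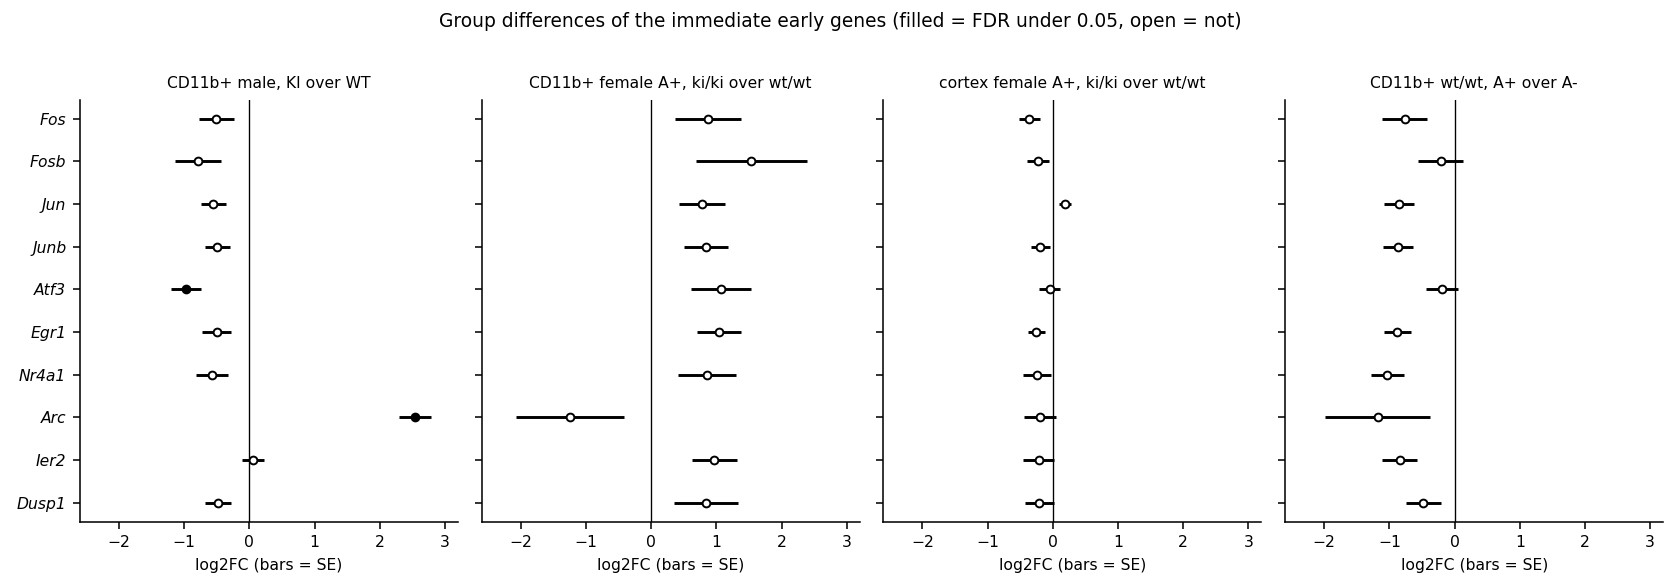
Log2 difference ± SE (edgeR) of the 10 immediate early genes in 4 comparisons within a preparation, 1 panel each. Filled points passed an FDR of 0.05. Filled points occur in the male panel only, for *Arc* (2.54) and *Atf3* (-0.97).

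The second question was what P522R does where amyloid is present. In the female A+ CD11b+ libraries 0 of the 10 genes, and 0% of 17039 genes, were called between A+/ki/ki and A+/wt/wt by edgeR, and each of the 10 had an adjusted p of 0.853. With DESeq2 the count over the 10 was 0 as well. At an unadjusted p under 0.05 there were 4 (*Junb*, *Egr1*, *Ier2* and *Atf3*), where 3.37% of all genes reached that level. The difference was positive for 9 of the 10, with a median of 0.87 on the log2 scale, and negative for *Arc*.

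*Egr1* was at 937.3, 728.9, 2451 and 1518 CPM in A+/ki/ki and at 600.4, 681.5, 675.8 and 688.2 CPM in A+/wt/wt. All 4 A+/ki/ki libraries lay above the A+/wt/wt libraries, as did those of *Ier2* (215 to 691.9 CPM against 165.1 to 190.6 CPM), while 1.68% of all genes were higher without overlap. The log2 difference of *Egr1* was 1.04 ± 0.34. *Fos* overlapped between the genotypes: its A+/ki/ki value of 570.9 CPM lay inside the A+/wt/wt range of 514.9 to 906.3 CPM and that of 488.9 CPM below it.

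Except in *Arc*, where mouse 335 stood apart at 24.36 CPM, the width of the A+/ki/ki group came from a pair of mice. Mouse 394 had the highest level in 9 of the 10 genes and mouse 405 the next highest. For *Fosb* mouse 394 was at 1761 CPM and mouse 405 at 508 CPM, against 146.7 and 110.6 CPM in mice 244 and 335. The same pair had neuron sums of 386.5 and 231.2 CPM and oligodendrocyte sums of 7530 and 7586 CPM, against 28440 and 69600 CPM in mice 244 and 335. Their microglia sums were 29980 and 29940 CPM, against 25980 and 19660 CPM. The part of this makeup in the levels was not tested, and leaving out either mouse left the count at 0.

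In cortex 0 of the 10 genes and 0% of 18640 genes were called between A+/ki/ki and A+/wt/wt by edgeR (adjusted p of 1 in each), 0 also with DESeq2, and at an unadjusted p under 0.05 only *Fos* passed, beside 2.76% of all genes. *Fos* was at 21.02 to 31.82 CPM in A+/ki/ki and at 25.77 to 44.23 CPM in A+/wt/wt (log2 -0.36 ± 0.16), with overlapping ranges. The difference was negative for 9 genes and positive for *Jun* (log2 0.18 ± 0.09). *Arc* was at 141.7 ± 37.86 and 161 ± 59.04 CPM (SD, n = 4 each), so the genotypes differed by less than the spread between mice.

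Whether the effect of the knock-in differed between CD11b+ cells and cortex was tested as an interaction, and 0 of 10 genes and 0% of 19942 genes passed by edgeR (adjusted p = 0.854 in each), with 5 of 10 and 5.1% of all genes at an unadjusted p under 0.05. On the log2 scale the interaction was 1.76 ± 0.91 for *Fosb* and 1.28 ± 0.38 for *Egr1*, which had the smallest unadjusted p of the 10. Without A+/ki/ki CD11b+ mouse 335, 3 of 10 (*Junb*, *Egr1* and *Arc*) and 8.14% of all genes were called. This mouse had the highest neuron and oligodendrocyte sums of its group, and the highest neutrophil and monocyte sum, 1669 CPM against 49 to 445.9 CPM in the others.

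The effect in males without the transgene, minus that in females with it, was also tested, and the groups differ in sex, transgene and batch at once. By edgeR 0 of 10 genes passed (adjusted p from 0.143 to 0.199), 0% of all genes were called, and 8 of 10 had an unadjusted p under 0.05 where 26.5% of all genes did. The interaction was negative for 9 genes, between -0.88 and -2.30, and positive for *Arc* (3.80 ± 1.00). DESeq2 called 5 (*Jun*, *Junb*, *Egr1*, *Arc* and *Atf3*). No share over all genes is given here for DESeq2, so that count cannot be read as a result about these genes. Without mouse 335, edgeR called 10 of 10, beside 35.4% of all genes.

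The transgene was compared in CD11b+ cells of wt/wt females, 4 A+ against 7 A-. Of the 10 genes 0 were called by edgeR, beside 1.29% of 17355 genes (0.282% lower), and all 10 differences were negative, with a median of -0.85 on the log2 scale against -0.03 over all genes tested. The A+ libraries carry the tag of 1 batch and the A- libraries that of another, so batch and transgene cannot be told apart. Border macrophage markers had a median log2 difference of -0.94 (*Pf4* and *Cd163* called lower, summed level 215.3 to 273.6 CPM in A+ and 312.7 to 639.2 CPM in A-). Neutrophil and monocyte markers were at -1.05, with 0 of 8 called and a summed level of 65.69 to 145.5 CPM in A+ and 89.76 to 613.3 CPM in A-. Their part in the differences was not tested.

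*Egr1* ran from 952.7 to 1914 CPM (median 1131) in the 7 A- libraries and from 600.4 to 688.2 CPM in the 4 A+ libraries. No A+ library reached the lowest A- library (log2 -0.88 ± 0.21, edgeR adjusted p = 0.0715). *Jun*, *Junb*, *Nr4a1* and *Ier2* did not overlap either, so that 5 of 10 were lower without overlap, where 1.43% of all genes were. *Nr4a1* ran from 159.1 to 356.2 CPM (median 210.3) in A- and from 72.14 to 138.2 CPM in A+ (log2 -1.03 ± 0.26, edgeR adjusted p = 0.0813).

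At an unadjusted p under 0.05 there were 6 of 10, beside 10.1% of all genes. DESeq2 called 4 lower (*Jun*, *Junb*, *Egr1* and *Nr4a1*). As no share over all genes is given here for DESeq2, its count cannot be read as a result about these genes. Without A- mouse 223, the library with the highest neuron sum, edgeR called the same 4, with log2 differences of -0.92, -0.96, -0.92 and -1.12 and adjusted p of 0.0497, 0.0319, 0.0353 and 0.031, beside 2.88% of all genes. *Fosb* and *Atf3* were closest between the groups, at log2 -0.22 ± 0.35 and -0.19 ± 0.24. In the other lists *Maff* (log2 1.25) and *Rgs1* (log2 1.03) were called higher and *Csrnp1* (log2 -0.83) lower, and the other 111 genes tested in these lists were not called.

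Between mice of the same group the immediate early genes varied together. After each group's mean had been removed, the 36 pairs of genes without *Arc* had correlations of 0.696 to 0.97 (median 0.864) over the 22 CD11b+ libraries. The highest were *Jun* with *Junb* (0.97), *Jun* with *Atf3* (0.968) and *Fos* with *Dusp1* (0.967). All 9 pairs with *Arc* were negative there, between -0.307 and -0.0406. In the 8 A+ cortex libraries the 9 pairs with *Arc* were all positive (median 0.878), and the 36 pairs without it had a median of 0.612, with *Fos* and *Jun* at -0.0888. These correlations describe libraries that share a scaling and, within a group, a batch tag, and mouse 394 lies at the top of 9 genes.

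The genes outside the 10 whose pattern was most like their joint one over the 22 CD11b+ libraries, among 11420 genes of at least 5 CPM, were *Socs3* (r = 0.967), *Ppp1r15a* (0.954), *Zfp36* (0.947), *Btg2* (0.928) and *Gem* (0.917). All but *Gem* are in the list of feedback inhibitors and RNA decay factors above. Over the 8 A+ cortex libraries, among 11631 genes, they were *Cd34* (0.969), *Ctsb* (0.961), *Trib1* (0.961), *Lag3* (0.956) and *Cux1* (0.955). With so many genes and only 8 libraries, unrelated genes can also reach a high r, and this likeness was not tested.

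How much mice differed also depended on the group. In male A-/wt/wt the SD of log2 CPM was 0.846 for *Fosb* and 0.526 for *Fos*, at the 99.9th and 99.5th percentile of all genes of at least 5 CPM, where the median gene had 0.0923. In CD11b+ A+/wt/wt, by contrast, *Ier2* (0.0889) and *Egr1* (0.0922) were at the 12th and 13th percentile, below the median gene's 0.202, and *Arc* (0.939) at the 99.4th. In A+/ki/ki *Fosb* had the widest spread of the 10, 1.83, at the 99.6th percentile.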

How the data were processed

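RNA of CD11b+ cells and of cortex was sequenced from oligo(dT) libraries, and the authors deposited raw counts per gene (FastQC 0.11.7, Trimmomatic 0.39, STAR 2.7.9a to GRCm38, Gencode vM25, and featureCounts 2.12.0 on uniquely mapped reads without regard to strand, R 4.2.2), together with log2 values from a variance-stabilising transformation. Samples were grouped by their labels. Counts were tested in R 4.3.3 with edgeR 4.0.16 (quasi-likelihood, TMM, a minimum of 10 counts in 3 or more libraries of the fit, two-sided, Benjamini-Hochberg over all genes tested, FDR 0.05). Every comparison used only its own groups, and interactions used the 4 groups involved. DESeq2 1.42.0, limma 3.58.1 on the deposited log2 values, other scalings and filters, and each library left out served as alternatives. Folds between groups are ratios of mean CPM, and of geometric means for ratios to marker sums. Correlations used log2(CPM + 0.5). Ratios to marker sums were taken per library, a count of 0 being set to 0.5 counts when all genes were ranked. Replicate pairs differed by more than sampling noise (smallest chi-square per gene 6.25). Exon lengths came from an annotation of the same build. Libraries held 16229831 to 43129427 counts, and depth limits the precision of *Arc* and *Atf3* most, in CD11b+ cells and cortex respectively. The named genes were the 10 members, the 3 called genes of the widest difference in each list (at least 5 CPM), the 3 leading markers, and the 5 genes most alike, some names being not reported here. Members and lists were chosen with earlier results of these data known, and the ratios to marker sums after seeing the data.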

Additional observations from a re-analysis of the deposited data

Results flagged for a closer look

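Each gene was checked in each group of 4 to 7 mice for a single mouse far from the rest, and 8 of 60 sets had one. The genes vary together between mice, so the sets are not independent and the count was not set against chance. In CD11b+ A-/wt/wt, mouse 224 stood above the others in *Fosb* (447.8 CPM, next 250.5), *Egr1* (1914 CPM, next 1351) and *Ier2* (584.5 CPM, next 356.7), and mouse 223 in *Arc* (168.7 CPM, next 68.86). In CD11b+ A+/ki/ki, mouse 335 was at 24.36 CPM of *Arc* and the next at 4.113. In CD11b+ A+/wt/wt, mouse 331 was lowest in *Egr1*, at 600.4 CPM, with the next at 675.8. In male A-/ki/ki, mouse 104 led in *Junb* (1190 CPM, next 897.5) and mouse 136 in *Nr4a1* (148.6 CPM, next 93.78). The mice singled out in *Arc* were those with the highest neuron sums of their groups, 5913 and 2769 CPM. Of 20 interaction results, 0 passed by edgeR's quasi-likelihood test at FDR 0.05, while 13 had an unadjusted p under 0.05 and DESeq2 called 5. The share of all genes that DESeq2 called is not given here.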

How the results depend on the processing

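No paired analysis was possible because the groups compared share fewer than 2 mouse numbers. In the male comparison of A-/ki/ki with A-/wt/wt, 2 of the 10 genes were called by edgeR, 4 with library totals (*Jun* and *Junb* added), 4 without the low-count filter (*Fosb* and *Nr4a1* added) and 4 with DESeq2 (*Jun* and *Junb* added), and 1 to 4 on leaving out each mouse. Except where stated above, the shares of all genes called under such alternatives are not given here, so these counts cannot be set against them. For A+ against A- CD11b+ cells the count was 0, 4 with DESeq2 and 0 to 4 leaving out each mouse. The interaction of preparation and knock-in gave 0 to 3 leaving out each mouse. That of the male and female effects gave 5 with DESeq2 and 0 to 10 leaving out each mouse. CD11b+ cells against cortex gave 9 to 10 calls in A+/wt/wt and 10 in A+/ki/ki, leaving out each mouse, and 9 in A+/wt/wt with library totals, which shifted log2 differences by -0.37. The knock-in in A+ CD11b+ cells and in cortex gave 0 in every alternative. Only *Arc* passed against the neuron sum, under every mouse left out (1 to 1). Without both farthest mice 0 genes passed, where 1 gene alone at the smallest p of 5 mice cannot reach the threshold (smallest adjusted p 0.0833). Signs turned for *Ier2* in males with library totals (-0.054) and without mouse 102 (-0.0686 to 0.351 over the mice left out), and in cortex, leaving out each mouse, for *Arc* (-0.41 to 0.0114), *Dusp1* (-0.379 to 0.0197) and *Atf3* (-0.123 to 0.0343). Correlations with the neuron sum turned for *Jun* with DESeq2 size factors (-0.0341), for *Fos* (-0.065), *Fosb* (-0.163), *Jun* (-0.466), *Ier2* (-0.306), *Dusp1* (-0.255) and *Atf3* (-0.429) with library totals, and for *Junb* (0.542), *Egr1* (0.598) and *Nr4a1* (0.229) without the farthest mice. Leaving out each mouse they ranged over -0.312 to 0.418 for *Jun*, -0.419 to 0.417 for *Junb*, -0.229 to 0.117 for *Egr1*, -0.441 to 0.141 for *Nr4a1*, -0.142 to 0.541 for *Ier2* and -0.165 to 0.527 for *Atf3*. Per *Csf1r* alone, the A+/ki/ki ratios of *Fos* (-0.0186), *Jun* (-0.259) and *Ier2* (-0.131) turned negative, and leaving out each mouse they ranged from -0.158 to 0.502, -0.24 to 0.163 and -0.168 to 0.303. Per *Snap25* alone, those of *Arc* turned positive (0.817 in A+/wt/wt and 0.707 in A+/ki/ki), and leaving out each mouse gave -0.434 to 0.358 in A+/wt/wt. Of the single-gene log2 differences under the other settings, 453 kept direction and call, 15 gained a call, 1 lost it and 1 turned. All groups in 1 fit gave the male libraries the same model, so it added no value. The causes were not tested.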
